A study of Mus musculus with 6 samples.

Results

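Immunoglobulin heavy and light chain genes were examined in RNA-seq of inguinal white adipose tissue (iWAT), the subcutaneous fat depot of the groin. Genes were included when their symbol began with Ighv, Igkv or Iglv (variable, V, segments) or was one of the 12 constant region genes of the heavy chain (Ighm, Ighd, Ighg1, Ighg2b, Ighg2c, Ighg3, Igha, Ighe) and light chains (Igkc, Iglc1, Iglc2, Iglc3), and when the normalized value reached 0.5 in at least 1 of the 6 mice. Of 360 such genes among the 55573 genes listed, 167 were included: 78 Ighv, 74 Igkv and 3 Iglv segments, 8 heavy chain constant genes, Igkc and 3 Iglc genes. The other 193 stayed under 0.5 in every mouse, and 107 of these had no read in any mouse. Since measured values decided which genes were included, that they are expressed is not a result.

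All 6 mice were 3-month-old males of strain C57BL/6NTac on regular chow, with no treatment. The 3 mutant mice were homozygous for THRA K283Q/K288R, a global knock-in in exon 8 of Thra, and the 3 controls were wild type (Wt). The knock-in replaces K283, a lysine used for sumoylation of thyroid hormone receptor alpha, and K288, the alternate lysine when K283 is blocked. Another sumoylation site was left unchanged, and the paper reports sumoylated receptor in subcutaneous fat as reduced, not absent. Controls were bred in-house from the same strain, and litters and cages are not given. Breeding line, litter and cage cannot be told apart from genotype here. The mutation is in every tissue, so lymphocytes carry it as well as fat cells, and it exchanges codons, so the level of Thra mRNA cannot check the genotypes. The gene list and the separate treatment of mutant mouse 1 were chosen with results of these libraries known.

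Antibodies are made by B lymphocytes and plasma cells. A B cell joins 1 heavy chain V segment to D and J segments and 1 kappa or lambda V segment to a J segment, and it attaches them to constant regions, so the V genes read in a tissue show which segments its B cells had joined. Naive B cells carry IgM (Ighm) and IgD (Ighd). After activation, class switching replaces these constant regions by those of IgG, IgA or IgE, and plasma cells secrete the product. The inguinal fat pad surrounds a lymph node. In whole tissue, fewer cells of a type and less RNA per cell cannot be told apart.

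The sequences of 6 V segments are shown because the comparisons turn on them. Ighv9-3, Ighv1-31, Igkv1-110 and Igkv12-46 were the V genes with the greatest fall in share of V reads from Wt to mutant mice 2 and 3, and Ighv1-64 and Igkv3-2 led the heavy and kappa V reads of mutant mouse 1. Each line gives the last 300 bases of the longest GENCODE M21 transcript, on the coding strand. For Ighv1-31 it gives all 294 bases of the shortest transcript, where the annotated exons hold 351 bases. Capitals mark the bases that differ from the most similar other V gene of the annotation.
Ighv9-3: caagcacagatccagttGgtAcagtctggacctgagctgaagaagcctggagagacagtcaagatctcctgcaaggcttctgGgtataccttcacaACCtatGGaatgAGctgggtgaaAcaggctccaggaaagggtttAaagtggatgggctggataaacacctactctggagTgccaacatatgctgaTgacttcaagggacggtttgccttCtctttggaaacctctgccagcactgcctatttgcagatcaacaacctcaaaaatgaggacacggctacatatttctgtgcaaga
Ighv1-31: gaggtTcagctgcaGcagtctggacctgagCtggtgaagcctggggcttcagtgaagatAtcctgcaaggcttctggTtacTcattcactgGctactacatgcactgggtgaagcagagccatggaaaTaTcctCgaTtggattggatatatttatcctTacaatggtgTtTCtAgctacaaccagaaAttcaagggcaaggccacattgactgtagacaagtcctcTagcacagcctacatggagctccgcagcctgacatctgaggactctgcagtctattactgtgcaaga
Igkv1-110: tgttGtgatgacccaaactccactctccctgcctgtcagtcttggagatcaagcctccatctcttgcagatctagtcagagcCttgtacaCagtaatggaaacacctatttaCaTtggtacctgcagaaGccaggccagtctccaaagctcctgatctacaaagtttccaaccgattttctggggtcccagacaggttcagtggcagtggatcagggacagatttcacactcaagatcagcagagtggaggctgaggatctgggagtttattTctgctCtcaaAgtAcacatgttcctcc
Igkv12-46: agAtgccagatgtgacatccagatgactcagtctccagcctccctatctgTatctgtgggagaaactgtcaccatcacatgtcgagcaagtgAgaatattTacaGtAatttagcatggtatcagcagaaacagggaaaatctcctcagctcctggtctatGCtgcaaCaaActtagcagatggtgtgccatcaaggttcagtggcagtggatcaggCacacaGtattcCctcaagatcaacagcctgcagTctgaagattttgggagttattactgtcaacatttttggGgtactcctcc
Ighv1-64: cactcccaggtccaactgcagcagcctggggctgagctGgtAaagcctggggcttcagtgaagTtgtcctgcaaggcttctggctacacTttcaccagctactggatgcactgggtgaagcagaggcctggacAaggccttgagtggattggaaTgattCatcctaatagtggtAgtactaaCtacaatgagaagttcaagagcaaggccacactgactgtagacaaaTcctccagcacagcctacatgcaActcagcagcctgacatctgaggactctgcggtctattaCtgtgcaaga
Igkv3-2: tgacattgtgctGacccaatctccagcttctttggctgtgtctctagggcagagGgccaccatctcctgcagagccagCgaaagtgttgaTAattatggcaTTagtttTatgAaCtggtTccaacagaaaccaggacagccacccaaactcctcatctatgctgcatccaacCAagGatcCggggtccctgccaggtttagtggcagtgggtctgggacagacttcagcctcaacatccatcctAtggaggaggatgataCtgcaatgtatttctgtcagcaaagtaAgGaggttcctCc

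The most similar gene was Ighv9-2 for Ighv9-3 (15 of 300 bases differ), Ighv1-34 for Ighv1-31 (18 of 294), Igkv1-117 for Igkv1-110 (10 of 300), Igkv12-41 for Igkv12-46 (15 of 300), Ighv1-72 for Ighv1-64 (12 of 300) and Igkv3-1 for Igkv3-2 (20 of 300). In GRCm38 coordinates the 4 segments that fell lie at chr12:114140692-114141122 (Ighv9-3, minus strand), chr12:114829264-114829697 (Ighv1-31, minus), chr6:68270485-68271267 (Igkv1-110, plus) and chr6:69764523-69765022 (Igkv12-46, minus). Ighv1-64 lies at chr12:115507545-115508031 (minus) and Igkv3-2 at chr6:70698449-70699067 (plus). Each interval holds the leader exon, an intron and the V exon. A read in a shared stretch cannot be placed with certainty. Across the 167 genes the median share of 50-base windows found also in another annotated gene was 21.3%, 34 genes shared none and 18 shared over 50%. The share was 34.1% for Ighv1-31, 23.2% for Ighv9-3, 50.9% for Igkv1-110, 9.76% for Igkv12-46, 33.4% for Ighv1-64 and 21.3% for Igkv3-2.

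The libraries held 19607423 to 24228381 reads on genes per mouse, and 3 reads correspond to normalized values of 0.126 to 0.157. Within a genotype, values are listed throughout in the order of mice 1, 2 and 3. The immunoglobulin genes took 35552, 49145 and 68609 reads in Wt and 10641, 36642 and 42367 reads in mutant mice, or 0.147%, 0.247% and 0.320% against 0.0537%, 0.179% and 0.216% of all reads. Values are CPM, reads relative to the library total, scaled further by the authors with 1 factor per mouse. Across all genes tested the median log2 fold change, mutant over Wt, was -0.05. The summed immunoglobulin value was 2255 ± 708 (SD, n = 3) in Wt and 1395 ± 744 (SD, n = 3) in mutant mice, a ratio of 0.618, and 0.804 without mutant mouse 1. A sum over genes chosen by their values was not tested, and exchanging the genotype labels of 3 and 3 mice in every way gives no two-sided exact p below 0.1.

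Mutant mouse 1 lay below the other 5 mice in most immunoglobulin genes. Ighm was lowest there too, but in proportion less so than the other constant genes. Mutant mouse 1 was the lowest mouse for 152 of the 167 genes and the highest for 4 (Ighv3-1, Ighv3-4, Ighv11-2 and Igkv1-122). It had no read for 100 genes, whereas no other mouse lacked reads for more than 2. Its summed value was 26.8% of the mean of the other 5 mice, and 5.19% when Ighm was left out. These values are descriptions, because this mouse was set apart on them.

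Ighm, the constant region of IgM, was 711, 930 and 1062 in Wt and 494, 762 and 833 in mutant mice. The genotypes overlapped, and mutant mouse 1 stood at 57.5% of the mean of the other mice. Ighd, the constant region of IgD, which is transcribed together with Ighm and spliced from the same RNA in naive B cells, was 169, 344 and 388 in Wt and 3.04, 272 and 400 in mutant mice. Mutant mouse 1 thus held 0.966% of the Ighd level of the others. In reads this is 16264 Ighm reads for each 100 Ighd reads in mutant mouse 1, against 208 to 421 in the other 5. Ighm shares no 50-base window with another annotated gene and no annotated gene overlaps it.

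V reads were set against constant region reads in each mouse. Heavy chain V reads per 100 heavy chain constant reads were 9.89, 11.4 and 11.04 in Wt mice, 2.19 in mutant mouse 1 and 8.04 and 7.46 in mutant mice 2 and 3. Kappa V reads per 100 Igkc reads were 66.9, 61.6 and 57.5 in Wt mice, 80.5 in mutant mouse 1 and 58.9 and 55.1 in the other mutant mice. With Ighm left out of the constant reads, the heavy chain ratio was 207 in mutant mouse 1, on 209 V reads, and 20.7 to 35.6 in the other 5. V reads joined to Ighm stay in this ratio, so leaving Ighm out raises it in every mouse. Lambda V reads per 100 Iglc reads were 129 in mutant mouse 1, on 28 Iglc reads, and 36.8 to 53.7 elsewhere. Mutant mouse 1 therefore had the highest ratio of the 6 mice for kappa, for lambda and for the heavy chain without Ighm, and the lowest for the heavy chain with Ighm.

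B cell genes that are not immunoglobulins were also near 0 in mutant mouse 1. All 16 genes of a B cell list were lowest there, and their summed value was 29.97 against 869 to 1924 in the other mice, or 2.06% of the mean. Cd79a, a signalling chain of the B cell receptor, was 65.2, 129 and 145 in Wt and 0.52, 79.7 and 123 in mutant mice. Pax5, a transcription factor of B cell identity, was 0.89 in mutant mouse 1, where the other mice had at least 82.4. Cr2, the complement receptor of mature B cells, had 0.05 in mutant mouse 1 and 41.9 to 87.6 elsewhere. None of the 16 genes passed the test between genotypes (limma, FDR 0.05), and their median log2 fold change was -2.24 with all mice and -0.12 without mutant mouse 1.

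Lists for other cells moved together with the B cell list in that mouse. The sum of 14 T cell genes was 14.8 in mutant mouse 1 and 223 to 875 elsewhere, with all 14 lowest there. Of 9 genes for lymph node stroma and homing, 8 were found, and their sum was 30.3 against 162 to 542. Among them Glycam1, the mucin of lymph node vessels, was 12.4, 37.1 and 57.9 in Wt and 0.05, 49.5 and 61.2 in mutant mice, whereas Cxcl13, a chemokine that attracts B cells, was 25.6, 51.8 and 55.2 against 26.6, 54.3 and 74.0. Macrophage genes (6 genes, sum 798 in mutant mouse 1 and 631 to 732 elsewhere) and adipocyte genes (6 genes, 16291 and 10296 to 17038) were in the range of the other mice or above it. The adipocyte hormone Adipoq was 1332 to 2219, so the defining adipocyte marker was present in every library. The amount of lymphoid tissue in a sample and its part in the immunoglobulin values were not tested.

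**Figure D1:**
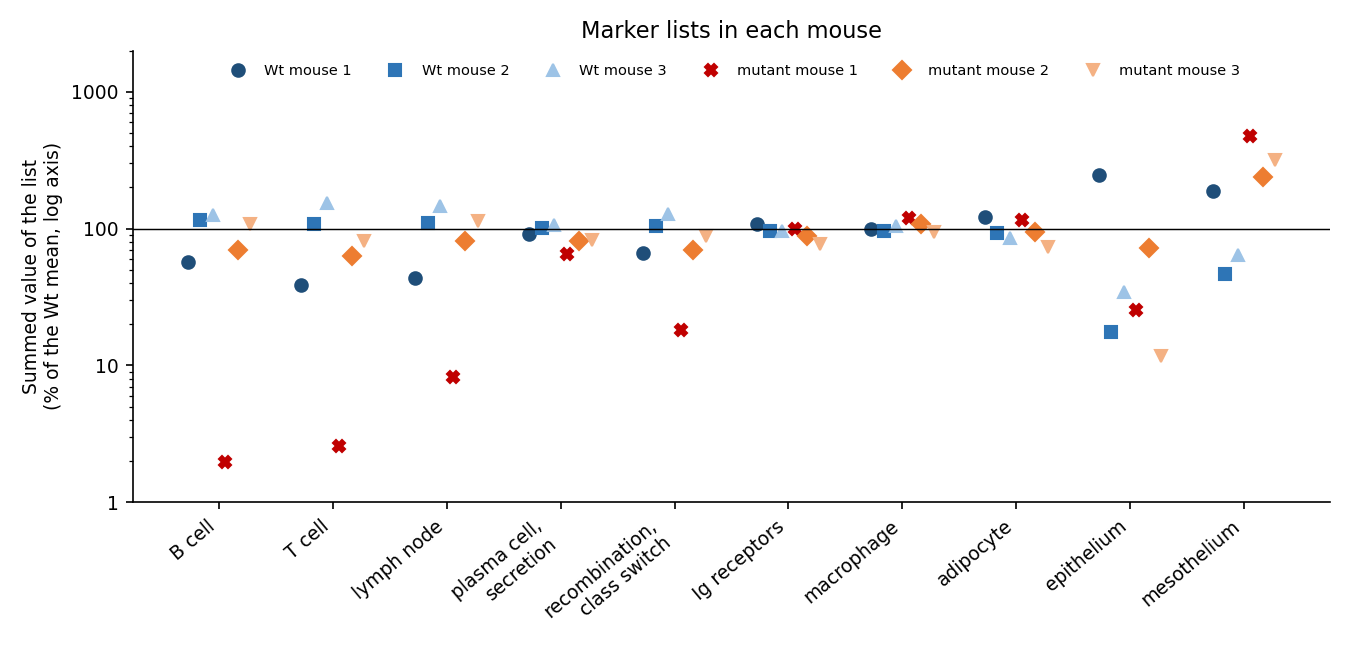
Summed normalized value of each of 10 marker lists in each of the 6 mice, as a percentage of the Wt mean on a log axis; each symbol is 1 mouse and the line marks 100%. Mutant mouse 1 lies at 1.97% to 8.18% of the Wt mean for the B cell, T cell and lymph node lists, and all 3 mutant mice lie above every Wt mouse for mesothelium.

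None of the 7 heavy chain constant genes tested passed with all mice, where 2.61% of all 16868 genes tested were lower (limma, FDR 0.05). Without mutant mouse 1, 2 were lower, Ighg2b and Igha, where 1.54% of 17239 genes were. Ighg2b was 37.1, 91.9 and 86.7 in Wt mice and 0.16, 18.6 and 17.1 in mutant mice, and Ighg2c was 38.4, 91.7 and 130 against 0.05, 25.7 and 27.4. Both are IgG heavy chain constant regions, and their genotypes did not overlap. With all mice neither passed the test (limma, adjusted p = 0.168 and 0.237), as the spread among the mutant mice was wide. Without mutant mouse 1, Ighg2b was lower by a log2 fold change of -1.87 (SE 0.38, adjusted p = 0.0378, limma) and Ighg2c by -1.52 (SE 0.46, adjusted p = 0.122). That mouse was set apart on its immunoglobulin values, and leaving it out narrows the spread in these same genes. Immunoglobulin p values without it, here and below, therefore describe the remaining mice only. The means of the Wt mice were 4.03-fold and 3.27-fold those of mutant mice 2 and 3.

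Ighg1 was 4.44, 4.52 and 27.3 in Wt mice and 0, 3.99 and 6.46 in mutant mice. Ighg3 was 5.19, 13.6 and 24.3 against 0, 9.69 and 7.30. Neither passed the test with or without mutant mouse 1, and in both genes mutant mouse 3 lay within the Wt range of values. The high Ighg1 value was that of Wt mouse 3 alone. Between IgG genes the share of 50-base windows in common was at most 5.49%.

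Igha, the constant region of IgA, was nearly equal among the Wt mice, at 19.6, 20.6 and 19.6, and was 2.04, 8.35 and 9.22 in mutant mice. The genotypes did not overlap. The log2 fold change was -1.76 (SE 0.50, adjusted p = 0.0897, limma) with all mice. It was -1.14 (SE 0.12, adjusted p = 0.0050, limma) without mutant mouse 1, a 2.27-fold difference of means. Ighe, the constant region of IgE, had at most 11 reads in any mouse (0.08 to 0.21 in Wt mice, 0 in mutant mouse 1, and 0.40 and 0.51, above every Wt mouse, in mutant mice 2 and 3) and was too low to be tested.

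**Figure D2:**
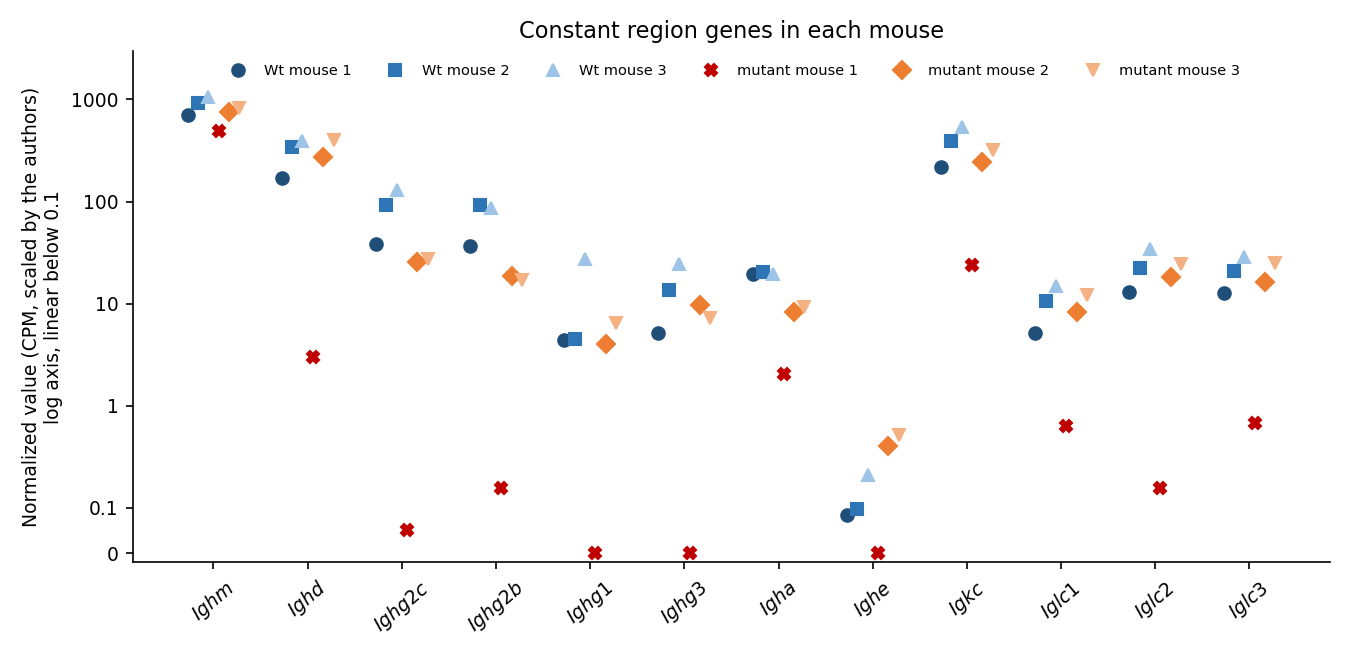
Normalized values of the 12 constant region genes in each mouse, on a log axis that is linear below 0.1; each symbol is 1 mouse. Mutant mouse 1 is lowest for all 12 genes, in proportion least so for Ighm, and mutant mice 2 and 3 lie below every Wt mouse for Ighg2b, Ighg2c and Igha.

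IgG reads were also set against Ighd and the B cell list. The sum of the 4 IgG genes was 85.2, 202 and 268 in Wt and 0.21, 57.9 and 58.3 in mutant mice. Per 100 Ighd reads there were 50.4, 58.7 and 69.1 IgG reads in Wt mice and 21.3 and 14.6 in mutant mice 2 and 3. Per 100 reads of the B cell list there were 9.80, 11.4 and 14.0 against 5.45 and 3.56. IgA gave 11.6, 5.98 and 5.06 reads per 100 Ighd reads in Wt mice and 3.07 and 2.31 in mutant mice 2 and 3. In mutant mouse 1 the IgG ratio was 6.90 and the IgA ratio 67.2, on only 58 Ighd, 4 IgG and 39 Igha reads. These ratios were formed after the values were seen and are given without a test.

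As shares of all heavy chain constant reads, not corrected for gene length, Ighm took 72.2%, 62.2% and 61.1% in Wt mice and 98.9%, 69.2% and 64.0% in mutant mice. Ighd took 17.2%, 22.97% and 22.3% against 0.608%, 24.7% and 30.7%. The IgG genes took 8.65% (exact 95% interval 8.29 to 9.02), 13.5% (13.1 to 13.9) and 15.4% (15.1 to 15.8) in Wt mice. In mutant mice they took 0.0420% (0.0114 to 0.107), 5.26% (4.99 to 5.55) and 4.48% (4.24 to 4.73). Igha took 1.99%, 1.37% and 1.13% against 0.409%, 0.759% and 0.709%. The intervals cover counting error only. Per kilobase of exon, the Wt means were 719 for Igkc, 478 for Ighm, 158 for Ighd, 65.4 for Ighg2c, 26.8 for Ighg2b and 7.47 for Igha.

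Genes for secretion and class switching were examined beside the isotypes. Of 14 plasma cell and secretion genes, none passed the test in either direction with all mice or without mutant mouse 1. Jchain, which joins IgM and IgA into polymers, was 43.4, 62.3 and 79.8 in Wt and 8.23, 28.8 and 28.1 in mutant mice (log2 fold change -1.64, SE 0.50, adjusted p = 0.106, limma), and the genotypes did not overlap. Xbp1 and Txndc5, which serve secretion in many cell types, were 164 to 194 and 148 to 149 in Wt and 132 to 163 and 129 to 133 in mutant mice. Sdc1 (11.3 to 16.2) and Prdm1 (3.64 to 6.44) showed no separation of the genotypes. Nor did Tnfrsf17 (0.53 to 1.31), Mzb1 (0.10 to 2.19) and Derl3 (0.31 to 1.94), which were low in all mice. Of the 9 genes for recombination, class switching and the surrogate light chain, 4 were tested and none passed. Among 9 immunoglobulin receptors, all tested, 2 passed, both lower in mutant mice, where 2.61% of all genes tested were lower. Fcgr4, an activating IgG receptor of myeloid cells, was 4.02, 2.19 and 2.19 in Wt and 1.10, 0.90 and 0.47 in mutant mice (adjusted p = 0.0456), and Fcer1g, the signalling chain shared by Fc receptors, was 37.2, 38.3 and 45.2 against 27.6, 31.0 and 25.4 (adjusted p = 0.0479, limma). Without mutant mouse 1, Fcgr4 passed and Fcer1g did not (adjusted p = 0.0444 and 0.0935, limma).

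Light chain constant genes overlapped between the genotypes. Igkc, the only kappa constant region, was 217, 396 and 534 in Wt and 24.2, 247 and 323 in mutant mice (log2 fold change -1.51, SE 0.97, adjusted p = 0.382, limma). Iglc1 was 5.19, 10.7 and 15.02 against 0.63, 8.39 and 12.3, Iglc2 was 12.9, 22.2 and 34.1 against 0.16, 18.4 and 24.4, and Iglc3 was 12.9, 20.9 and 28.7 against 0.68, 16.2 and 24.8. Without mutant mouse 1 the fold changes of the 3 lambda constant genes were 0.10, -0.02 and 0.02 on the log2 scale. The gene 2010309G21Rik overlaps Iglc1, Iglc3 and Iglv1, so their reads could not be separated from it with certainty.

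The lambda share of light chain constant reads was 12.5% (exact 95% interval 11.7 to 13.4), 12.0% (11.3 to 12.6) and 12.7% (12.2 to 13.3) in Wt mice. It was 5.71% (3.83 to 8.15), 14.8% (14.0 to 15.7) and 15.995% (15.2 to 16.8) in mutant mice. Mutant mouse 1 lay below and mutant mice 2 and 3 above every Wt mouse, so the mean difference was -0.21 percentage points with all mice and 3.03 without mutant mouse 1. The lambda V genes did not move alike. Iglv1 was 5.36, 11.1 and 14.1 in Wt and 1.89, 10.2 and 12.8 in mutant mice, and Iglv2 was 1.68, 7.29 and 7.83 against 0, 6.64 and 5.38. Iglv3 was 7.46, 10.6 and 14.9 against 0, 3.72 and 4.49, with no overlap (log2 fold change -2.33, SE 0.87, adjusted p = 0.168, and -1.27, adjusted p = 0.0523, without mutant mouse 1, limma). In mutant mouse 1 all 36 lambda V reads were on Iglv1.

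**Figure D3:**
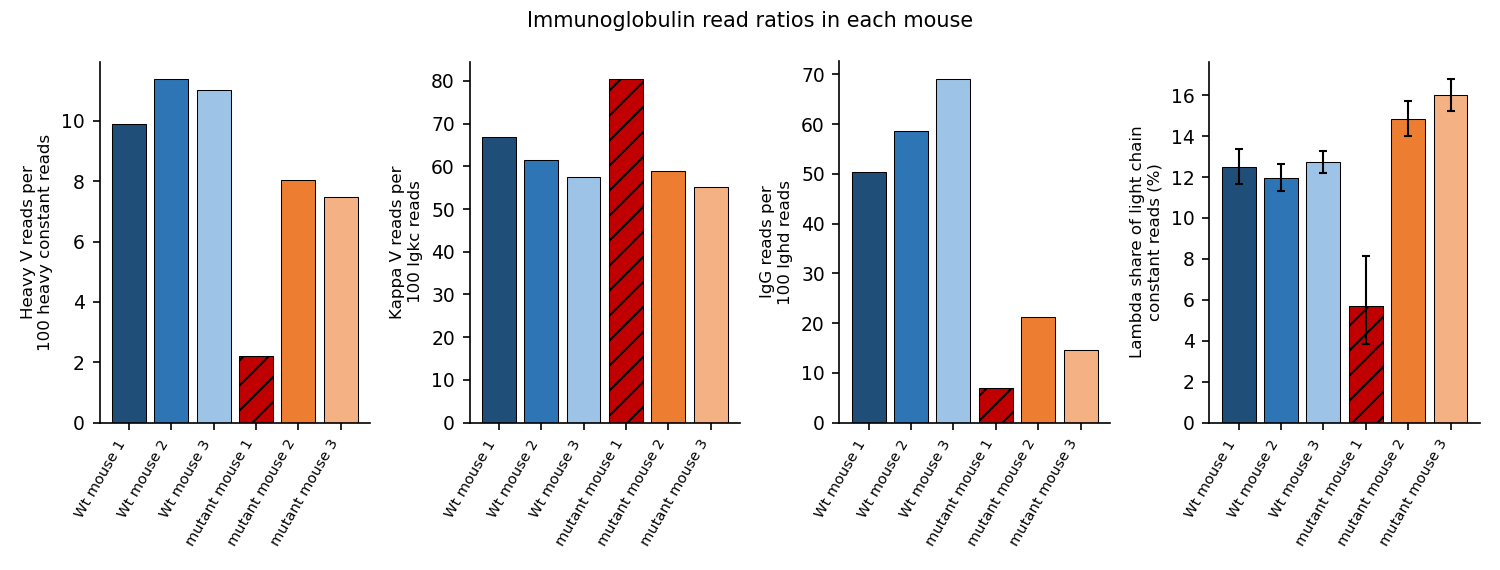
Ratios of immunoglobulin reads in each mouse, with 1 bar per mouse and mutant mouse 1 hatched; error bars in the right panel are exact 95% intervals of counting error. Mutant mouse 1 has the lowest heavy V ratio when Ighm is counted (2.19) and the highest kappa V ratio (80.5). With Ighm left out of the constant reads only, its heavy V ratio is 207 and the highest. IgG reads per 100 Ighd reads are 50.4 to 69.1 in Wt and 6.90 to 21.3 in mutant mice.

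Among the 167 genes, 139 had enough reads to be tested with all 6 mice. Genes that passed the filter through the genotype in which they are high are favoured, so these counts describe the tested genes. None was higher and 7 were lower in mutant mice (limma, FDR 0.05), where 5.5% of all 16868 genes tested were higher and 2.61% lower. At an unadjusted p under 0.05 (limma) there were 35 lower and 1 higher. No share over all genes was computed at this cut, so these counts have nothing to be read against. Without mutant mouse 1, 152 were tested, none was higher and 8 were lower, where 4.45% of 17239 genes were higher and 1.54% lower, and 5 genes were among both the 7 and the 8. Only 1 was lower without Wt mouse 2 or without Wt mouse 3, and 2 without mutant mouse 2. Every mutant mouse lay below every Wt mouse for 44 of the 139 tested genes, against 15.7% of all genes. The median log2 fold change of the tested immunoglobulin genes was -0.95, and -0.29 without mutant mouse 1.

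The 7 genes were the heavy chain segments Ighv1-31, Ighv1-53 and Ighv2-6 and the kappa segments Igkv1-110, Igkv4-55, Igkv8-28 and Igkv9-123. Ighv1-31 had the greatest difference. It had 147, 276 and 325 reads in Wt mice and 0, 4 and 1 in mutant mice, or values of 6.16, 13.4 and 13.7 against 0, 0.18 and 0.05 (log2 fold change -4.26, SE 0.33, adjusted p = 0.00166, limma). All mutant mice were therefore close to the floor of 3 reads, also the 2 mice whose other V genes were well covered. Ighv1-31 was included and passed the filter through its Wt values alone. Its adjusted p thus describes a gene kept through the genotype where it is high. The nearest included segments on either side were read in mutant mice 2 and 3. Ighv1-26, 40892 bases away, was 1.38, 4.23 and 3.24 in Wt and 0.79, 2.78 and 2.81 in mutant mice, and Ighv1-39 on the other side was 2.72, 3.11 and 2.15 against 0.21, 1.03 and 1.73.

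Igkv1-110, which shares 50.9% of its windows with other segments, was 9.64, 25.6 and 22.6 in Wt and 0.21, 2.87 and 3.09 in mutant mice (log2 fold change -3.16, SE 0.70, adjusted p = 0.0443, limma). Igkv8-28 was 4.57, 5.79 and 7.07 against 0, 1.03 and 1.22 (-2.51, adjusted p = 0.0294, limma). Igkv4-55 was close to 2 in each Wt mouse (1.97, 2.33 and 2.06) and 0, 0.40 and 0.75 in mutant mice (-1.66, adjusted p = 0.0338, limma). Igkv9-123 was low throughout, at 0.50, 1.41 and 1.72 against 0, 0.09 and 0.14 (-1.50, adjusted p = 0.0396, limma). Like Ighv1-31, it was kept through its Wt values alone. Ighv2-6 was 2.51, 1.56 and 2.02 against 0, 0.58 and 0.61 (-1.57, adjusted p = 0.0451), and Ighv1-53 was 1.42, 3.31 and 2.65 against 0.63, 0.76 and 0.70 (-1.25, adjusted p = 0.0406, limma). In each of the 7 genes the genotypes did not overlap. Ighv1-53 and Igkv4-55 share 57.6% and 53.3% of their windows with other genes. Of the 7, Ighv1-31 alone passed whichever mouse was left out. The other 6 did not pass without Wt mouse 2 or without Wt mouse 3 (adjusted p = 0.108 to 0.156, limma), nor without mutant mouse 2 (0.0692 to 0.122). Without Wt mouse 1, Ighv1-53 and Igkv9-123 still passed, without mutant mouse 1 Igkv1-110, Igkv8-28, Igkv4-55 and Ighv2-6, and without mutant mouse 3 Igkv8-28 and Igkv4-55.

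Ighv9-3, the most read heavy chain segment in 5 of the mice, was 12.2, 26.7 and 23.5 in Wt and 0.21, 5.12 and 6.27 in mutant mice. Its adjusted p was 0.114 with all mice and 0.0312 without mutant mouse 1 (log2 fold changes -2.76 and -1.72, limma). Igkv12-46 was 6.62, 21.9 and 21.4 against 0.05, 4.53 and 4.59 and did not pass (adjusted p = 0.152, and 0.131 without mutant mouse 1, limma). The nearest relatives of Ighv9-3 in the locus were low in all mice, with Ighv9-2 at 0.21 to 0.53 in Wt and 0 to 0.37 in mutant mice. Of the 10 most abundant heavy chain segments, Ighv1-55 (3.64 to 8.95 in Wt, 0 to 2.15 in mutant mice), Ighv1-81 (1.97 to 10.8, 0.05 to 1.97), Ighv1-80 and Ighv1-9 had no overlap. For Ighv1-81 the genotypes were apart only beyond the printed digits. Ighv4-1, Ighv3-6, Ighv1-18 and Ighv1-26 overlapped. Over all genes tested, every mutant mouse lay below every Wt mouse for 15.7%. Of the 10 most abundant kappa segments, Igkv14-111 (9.34 to 13.4 in Wt, 0.10 to 6.69 in mutant mice) and Igkv6-23 had no overlap besides Igkv1-110 and Igkv12-46, and Igkv4-86, Igkv6-15, Igkv19-93, Igkv10-96, Igkv5-48 and Igkv6-32 overlapped. Among these 20 segments, Ighv1-31 and Igkv1-110 passed the test with all mice.

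Use of V segments was compared as shares of the V reads of each mouse, which removes the total. Ighv9-3 took 12.6%, 15.7% and 12.3% of heavy V reads in Wt mice and 5.78% and 6.46% in mutant mice 2 and 3. Ighv1-31 took 6.33%, 7.87% and 7.12% against 0.20% and 0.05%. Igkv1-110 took 6.64%, 10.5% and 7.36% of kappa V reads against 1.98% and 1.74%, and Igkv12-46 took 4.56%, 8.97% and 6.98% against 3.12% and 2.58%. Shares of 1 mouse sum to 100%, so a fall of abundant segments raises others.

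The segments whose share was higher in mutant mice 2 and 3 were named after their values were seen. Igkv6-32 took 1.56%, 2.13% and 2.14% of kappa V reads in Wt mice and 4.79% and 6.71% in mutant mice 2 and 3, where it was the most read kappa segment of mutant mouse 3, and it had no read in mutant mouse 1. Igkv8-30 took 1.39%, 1.04% and 1.55% against 3.37% and 4.29%. Ighv1-22 took 0.56%, 1.88% and 0.94% of heavy V reads against 3.50% and 4.58%, and Ighv10-3 took 1.12%, 0.94% and 0.92% against 4.11% and 2.94%. In level, Igkv6-32 was 2.26, 5.20 and 6.56 in Wt and 6.96 and 11.9 in mutant mice 2 and 3 (log2 fold change 1.001 without mutant mouse 1, adjusted p = 0.26, limma). Over the 152 genes tested without mutant mouse 1, both mutant mice lay above every Wt mouse for 12 and below for 49, where all genes gave 17.0% and 21.4%.

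**Figure D4:**
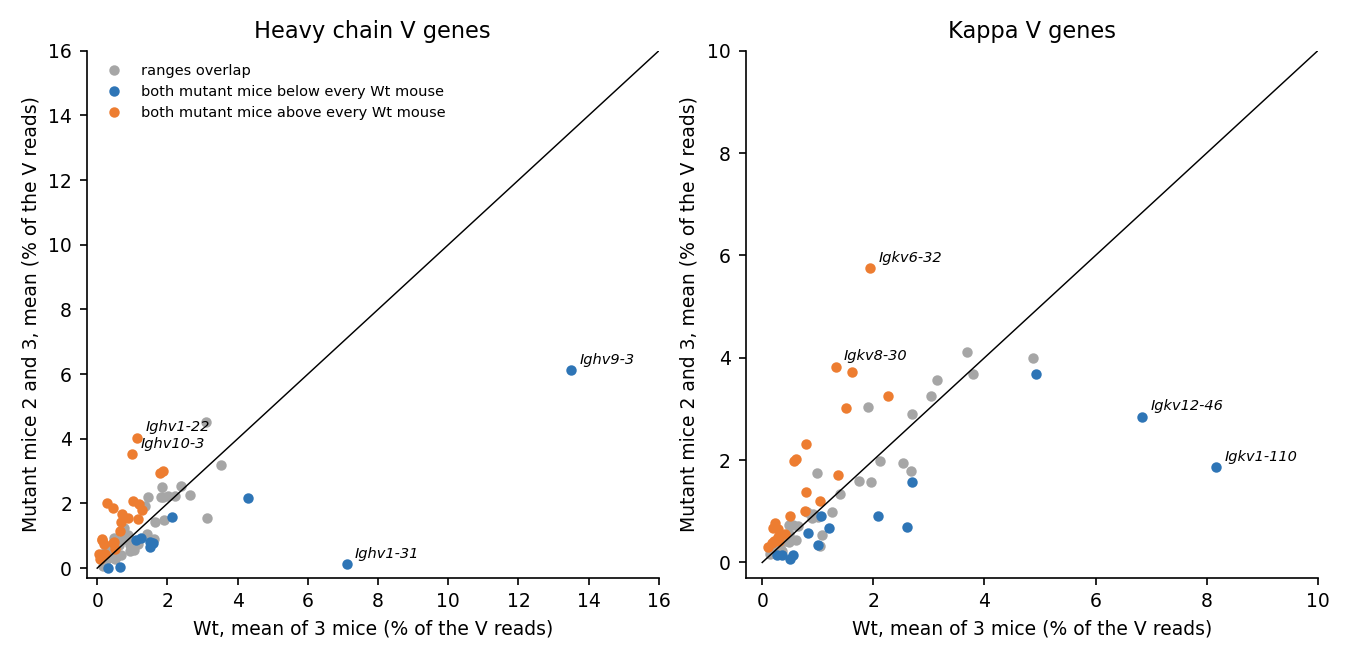
Share of the V reads for each of 78 heavy chain and 74 kappa V genes, as the mean of 3 Wt mice against the mean of mutant mice 2 and 3; each point is 1 gene, the line marks equal shares and colours show whether both mutant mice lie outside the Wt range. Ighv9-3, Ighv1-31, Igkv1-110 and Igkv12-46 lie farthest below the line and Igkv6-32 farthest above it.

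By V family, the Ighv1 family held 47.8% to 51.1% of heavy V reads in Wt mice and 46.4% and 47.6% in mutant mice 2 and 3. The Ighv9 family, nearly all of it Ighv9-3, fell from 13.4% to 16.9% in Wt to 6.54% and 7.67%, and the Ighv10 family was 1.82% to 2.11% in Wt and 6.74% and 4.44% in these mutant mice. Among kappa families, Igkv6 was 11.2% to 12.8% in Wt and 18.7% and 18.3% in mutant mice 2 and 3, while Igkv12 was 11.9% to 14.4% against 7.63% and 7.60% and Igkv1 was 12.0% to 16.2% against 7.69% and 8.29%.

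Heavy V use overlapped by 80.1% to 83.4% between Wt mice (the sum over genes of the smaller of the 2 shares), by 81.0% between mutant mice 2 and 3, and by 66.5% to 69.7% between a Wt mouse and either of these mutant mice. For kappa the overlaps were 81.8% to 86.2%, 85.4% and 71.3% to 75.5%. Among these 5 mice, every pair within a genotype overlapped more than every pair between genotypes. The pairs share mice and are not independent, so no test was made. Mutant mouse 1 overlapped with the others by 21.1% to 30.5% (heavy) and 24.1% to 34.0% (kappa), on its 209 heavy and 372 kappa V reads. Few reads lower this measure, and it was not computed at equal reads.

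The number of V genes in use was expressed as the effective number, the count of equally used genes that would give the same Shannon diversity. For heavy chain V genes it was 45.7, 42.5 and 44.8 in Wt mice and 14.9, 52.6 and 56.3 in mutant mice. For kappa it was 46.5, 42.6 and 46.7 against 14.2, 48.8 and 49.8. Mutant mice 2 and 3 lay above every Wt mouse for both chains and mutant mouse 1 far below. The 5 most read heavy V genes took 28.7%, 35.9% and 32.8% of heavy V reads in Wt mice, 24.1% and 20.5% in mutant mice 2 and 3 and 55.5% in mutant mouse 1.

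Fewer reads detect fewer genes, so V genes were also counted at the depth of mutant mouse 1. At 209 heavy V reads per mouse, 56.1, 57.2 and 57.2 genes were expected in Wt mice, 59.1 and 61.3 in mutant mice 2 and 3 and 24 in mutant mouse 1. At 372 kappa V reads the numbers were 62.8, 62.8 and 63.4, then 63.6 and 64.1, and 33 in mutant mouse 1. Mutant mouse 1 thus had fewer V genes at equal reads. The calculation treats reads as independent, and equal reads need not come from equal numbers of cells. Reads on the B cell list were 572 in mutant mouse 1 and 20744 to 45733 in the other mice. The number of cells behind the V reads was not tested. At a value of at least 0.5 mutant mouse 1 had 10 heavy and 10 kappa V genes, where the other mice had 51 to 67 and 55 to 71.

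The leading V genes of mutant mouse 1 were others than in the remaining mice. Ighv1-64 took 16.7% (35 reads, exact 95% interval 12.0 to 22.5) of its heavy V reads and 1.16% to 2.31% elsewhere, and Igkv3-2 took 15.9% (59 reads, 12.3 to 19.98) of its kappa V reads and 0.87% to 2.31% elsewhere. In level both were within the range of the other mice, with Ighv1-64 at 1.83 (1.13 to 3.24 elsewhere) and Igkv3-2 at 3.09 (1.26 to 4.12). Igkv1-122 stood apart in level also, at 2.88 (55 reads) in mutant mouse 1 and 0.21 to 0.44 (5 to 9 reads) in the others. Ighv3-4 was 0.94 (18 reads) against 0.04 to 0.40, and Ighv11-2 was 1.10 against 0.15 to 0.98. These 3 segments were named after their values were seen. The abundant segments of the other mice were nearly missing there, with 4 reads of Ighv9-3, 4 of Igkv1-110 and 1 of Igkv12-46.

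**Figure D5:**
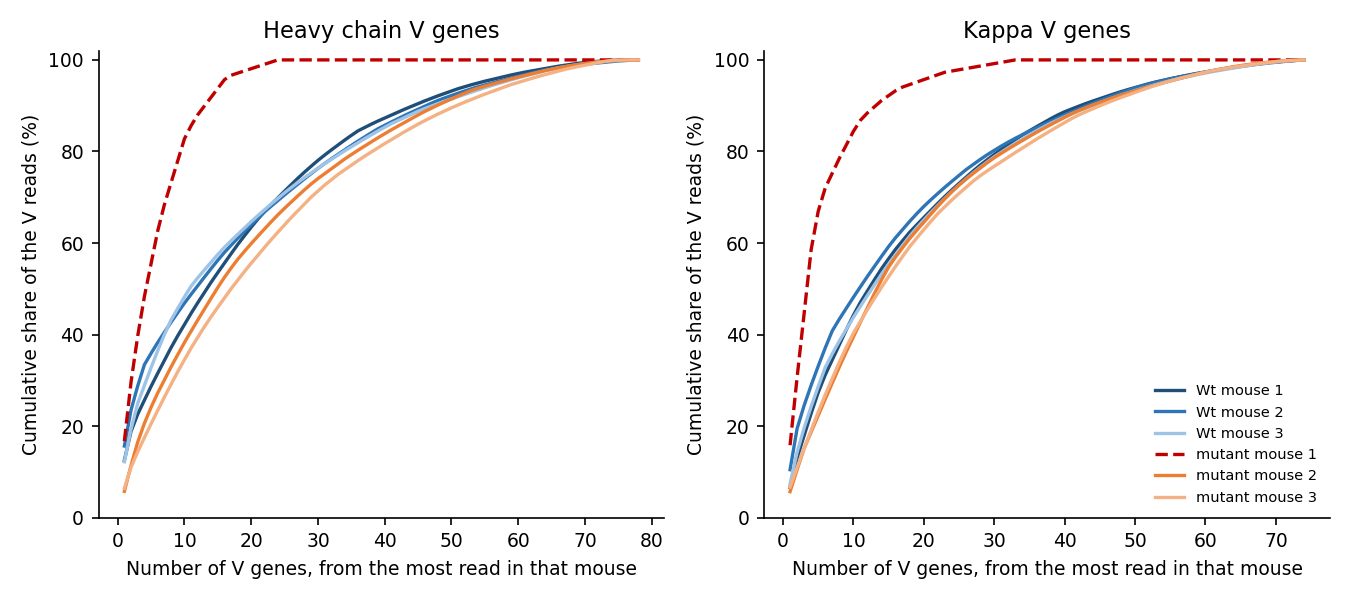
Cumulative share of the V reads against the number of V genes, ordered from the most read gene in each mouse; each line is 1 mouse and the dashed line is mutant mouse 1. Mutant mouse 1 reaches 100% with 24 heavy and 33 kappa V genes, whereas the curves of mutant mice 2 and 3 run below those of the Wt mice for the heavy chain at the left.

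Markers of other tissues also differed between the libraries. Of 8 mesothelium genes, 7 were higher in mutant mice (limma, FDR 0.05), with and without mutant mouse 1. Over all genes tested, 5.5% were higher with all mice and 4.45% without that mouse. The list summed to 8.32 to 34.0 in Wt and 42.8 to 85.7 in mutant mice. Wt1 was at 0, 0.05 and 0.04 in Wt mice. Epithelium genes, 7 in the list and none past the test, summed to 79.9 in Wt mouse 1 and 3.79 to 23.1 elsewhere. The part of these tissues in the immunoglobulin values was not tested. Wt mouse 1 was also the lowest Wt mouse for the B cell, T cell and lymph node lists and for Ighm, Ighd and Igkc.

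At the threshold for inclusion, the genes just inside were Ighe, Ighv2-6-8 and Ighv5-2, each with a highest value of 0.51, and those just outside were Igkv10-95 (0.49), Ighv1-36 (0.49) and Ighv8-2 (0.46).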

How the data were processed

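RNA-seq libraries of inguinal fat from 3 mutant and 3 Wt mice, 1 per mouse, were grouped by their labels. The values the authors deposited, in 1 table per genotype, are a normalized signal per gene: CPM with a further scaling factor per mouse. Whether both tables were scaled together could not be settled from the values. The submitters' processing notes name Bowtie2 2.1.0, RSEM 1.2.15, edgeR and mm10, and the placing of reads shared between V segments and the use of strand are not given in the sources used here. In each mouse 100.0% of values were whole multiples of 1 read (within 0.02 reads), so reads could be recovered.

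Genotypes were compared by limma-trend (limma 3.58.1, R 4.3.3) fitted to log2(value + 0.5), over the 16868 genes kept by filterByExpr of edgeR 4.0.16, with Benjamini-Hochberg adjustment over all of them and an FDR of 0.05. On this scale the fold change of a gene with low values comes out too small. The procedure was tested on simulated data with the same spread for all genes and no outlying mouse. That test does not cover genes in which mutant mouse 1 stands apart. Each library is a separate mouse. Given the recovered reads, the quasi-likelihood test of edgeR called 1250 genes and the Wald test of DESeq2 1.42.0 called 2118. Shares of reads have exact (Clopper-Pearson) 95% intervals for counting error only.

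Positions, exon lengths and sequences are from GENCODE M21 (GRCm38), which held all 167 genes. Promoters were not analysed here. The named V genes are the 10 most abundant of each chain, the leading ones of each mouse and those past the test. The genes, the 10 marker lists and the tests were chosen with earlier results of these data known.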

Additional observations from a re-analysis of the deposited data

How the results depend on the processing

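Of the values of single named genes under the alternatives, 518 kept direction and side of the threshold, 42 lost and 13 gained the call, and 12 turned direction. Ighv1-31 passed in all 15 fits in which it was tested, with log2 fold changes of -7.11 to -3.42 and adjusted p up to 0.0139 (limma, edgeR, DESeq2), and it was not tested when at least 10 reads were required in every mouse. The other 6 called genes passed in 6 (Ighv2-6), 7 (Igkv1-110), 8 (Ighv1-53), 9 (Igkv8-28 and Igkv4-55) and 10 (Igkv9-123) of the 15 or 16 fits in which they were tested.

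In place of 7 immunoglobulin genes lower in mutant mice, there were 3 with a pseudocount of 0.1 and 4 with scaling by library size only. With at least 10 reads required in every mouse there were 0. That filter removed most of these genes, since mutant mouse 1 had 3 reads or fewer for 128 of the 167. Of the 7, Ighv1-53 alone was tested under it, so this 0 is no test of the others. There were 3 with edgeR's quasi-likelihood test, 11 with DESeq2 (with 1 higher), and 1 to 8 when each mouse was left out in turn. The low of 1 came without Wt mouse 2 or without Wt mouse 3, and there were 2 without mutant mouse 2. For all genes, 928 higher and 440 lower became 345 and 253 with at least 10 reads in every mouse, and 489 to 767 and 58 to 265 when each mouse was left out. The number lower was 293 without a filter, 265 with library size only and 782 with DESeq2.

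With the replicate number as a replicate block, 38 immunoglobulin genes were lower and 1 higher, and 1733 of all genes were higher and 2330 lower. All 7 called genes were among the 38, and Ighm, Ighg2b, Igha, Iglv3 and Ighv9-3 also passed (adjusted p = 0.0234, 0.0349, 0.0382, 0.0406 and 0.0198, limma). The mice of 1 number are different animals, and the labels name no pairs, so the block is given only as an alternative. Deviations from the genotype means correlated by 0.69, 0.06 and 0.56 for numbers 1, 2 and 3, over 0.1 for 2 of 3. Between mice of different numbers the correlations were -0.67 to 0.54. Whether a shared factor follows the numbers was not tested.

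Leaving out each mouse gave log2 fold changes of -3.19 to 0.22 for Ighd, -1.66 to 0.10 for Iglc1, -2.19 to 0.019 for Iglc3, -0.98 to 0.26 for Iglv1, -1.60 to 0.32 for Iglv2, -0.80 to 0.034 for Ighv1-26 and -1.32 to 1.001 for Igkv6-32, and the positive end of each came without mutant mouse 1. The range was -0.45 to 0.15 for Ighv1-64 and -0.029 to 0.59 for Igkv3-2. Igkv6-32 was 0.43 with edgeR's quasi-likelihood test and 0.46 with DESeq2. The lambda share, mutant minus Wt, ranged from -2.11 to 3.03 percentage points. The effective number of V genes ranged from -10.6 to 10.2 for the heavy chain and from -13.8 to 4.08 for kappa, and all 3 were positive only without mutant mouse 1. The cause of these changes was not tested. With thresholds of 1 or 0.25 for inclusion, exon length in the shares or library size in the summed ratio, no direction changed.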
